A study of Homo sapiens with 22 samples.

Results

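Cell cycle and DNA replication genes were examined for N-MYC and WDR5 at their promoters in N-MYC amplified neuroblastoma cells. The set holds 60 named genes of the 20149 protein-coding genes in the annotation. By role, 16 license replication origins or belong to the replicative helicase, 6 are polymerases or clamp proteins of the fork, 22 are cyclins, kinases and their regulators, 9 belong to the RB, E2F and FOXM1 circuit and 7 are mitotic. Chromatin immunoprecipitation with sequencing (ChIP-seq) had been done in CHP-134 and IMR-32, both established lines. CHP-134 cells received DMSO or a compound for 4 h, with 3 libraries per antibody and treatment, and the sample labels name that compound in several ways, so it is not identified here. IMR-32 cells were untreated, with 2 libraries per antibody. Each library pooled 3 immunoprecipitations of one sample, made with a custom serum against N-MYC or an antibody against WDR5, and IgG samples were not analysed here. The study's methods describe independent repeats, but the labels tie no library to a culture, so p-values measure only the spread between these libraries.

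N-MYC is a MYC family transcription factor that pairs with MAX and binds the E-box, whose canonical form is CACGTG. WDR5 is a WD40 repeat scaffold of histone methyltransferase complexes and also contacts MYC proteins. In the cell cycle, cyclin D with CDK4 or CDK6 phosphorylates RB, which frees E2F factors to activate the genes of S phase. Origins are then opened by the MCM helicase after the ORC complex, CDC6 and CDT1 have loaded it, and geminin blocks a second loading. In neuroblastoma, amplified N-MYC is known for driving proliferation.

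A gene was counted as bound when the middle of a peak lay within 1 kb of any of its transcription start sites (TSSs) in at least 2 libraries of a group. Strength was read from the fold enrichment as a percentile within the same list, where 100 is the strongest peak, because folds of separate lists share no common scale. A gene with no peak in a list was given the percentile 0 when means were taken. The lists hold no read counts, so the depth behind a missing peak is unknown.

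CACGTG was searched around the N-MYC summits, the points of highest signal in a peak. Each gene was read at 1 summit per group, from the library that gave its largest −log10 q. CDK4 carried 3 E-boxes within 100 bp of that summit, in CHP-134 DMSO replicate 3, and 1 of them lay within 100 bp of the summit in replicate 2, where its percentile was highest. The sites below are printed 5′ to 3′ on the strand of the gene with the E-box in capitals. They were chosen to show these 3 CDK4 sites beside examples from its own role and from other roles. All positions here and later are in GRCh37 (hg19), and each E-box shown lies upstream of the canonical TSS. That of CDKN2C lies far from it, at -9909 bp, at an alternative start.
CDK4, chr12:58146177-58146206, minus strand: atgggtggcggtCACGTGcccagaacgtcc
CDK4, chr12:58146272-58146301, minus strand: atagcaacagatCACGTGgctgccatcgcc
CDK4, chr12:58146292-58146321, minus strand: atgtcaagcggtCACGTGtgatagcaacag
MCM7, chr7:99699028-99699057, minus strand: agtggcgccggtCACGTGgggggcgacgtt
CCNB1, chr5:68462769-68462798, plus strand: gcagaggcagacCACGTGagagcctggcca
CDKN2C, chr1:51425994-51426023, plus strand: gctttgcggctcCACGTGaccaccctcctg
FOXM1, chr12:2986334-2986363, minus strand: gcgacgttccgtCACGTGaccttaacgctc
BUB3, chr10:124913731-124913760, plus strand: gtaaaatgagccCACGTGatcggaaaagca

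An E-box lay within 100 bp of this summit in 11 of the 48 bound members in CHP-134, or 22.9%. The share over all 7450 bound genes was 26.9%, so the members lay near the background. It was found at 6 of 18 bound cyclins, kinases and regulators and at 0 of 6 fork genes. In IMR-32 the E-box lay at 7 of 19 bound members (36.8%), against 41.8% of all bound genes. With the peak of highest percentile instead, an alternative chosen after seeing the data, it was 11 of 48 against 26.6% in CHP-134 and 8 of 19 against 41.9% in IMR-32. A window that holds no CACGTG may hold other forms of the motif, which were not searched.

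N-MYC was found at 48 of the 60 genes in CHP-134 with DMSO, or 80%, against 37% of all protein-coding genes. In 35 of them it was listed in all 3 libraries, as it was in 5223 of all 7450 bound genes. Per library, 50, 42 and 43 members had a peak, and in each library the share of members was higher than the share of all genes. N-MYC bound 12 of 16 licensing and helicase genes, 6 of 6 fork genes, 18 of 22 cyclins, kinases and regulators, 7 of 9 genes of the RB and E2F circuit and 5 of 7 mitotic genes. Replication genes together stood at 18 of 22 and the others at 30 of 38, and the shares were 81.8% and 78.9%. Members without an N-MYC peak in any of the 8 N-MYC lists were CCND2, CCNE1, CDK2, CDC25B, RBL2, E2F4 and BUB1. For CCND2, CCNE1 and RBL2 the paralog CCND1, CCNE2 or RBL1 was bound. Whether these genes were transcribed was not measured in these files.

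**Figure D1:**
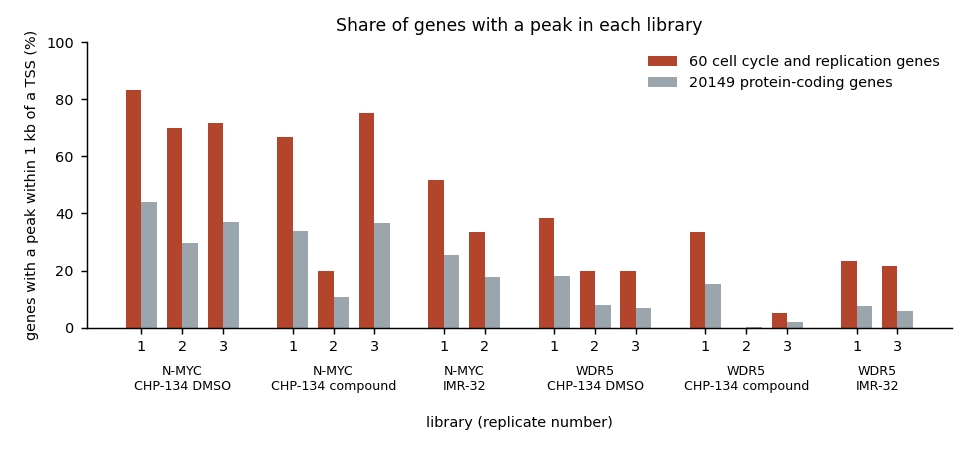
Percentage of the 60 genes (red) and of all 20149 protein-coding genes (grey) with a peak within 1 kb of a TSS, 1 pair of bars per library. In 15 of 16 libraries the red bar is the taller one; the exception is compound WDR5 replicate 2, a list of 15 peaks.

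Members were bound often, but their N-MYC peaks were of ordinary strength. Over the members with a peak, the median percentile was 69.0, 58.8 and 57.5 in the 3 CHP-134 libraries, or 61.8 ± 6.28 (SD, n = 3). The same median over all bound genes was 59.3, 54.4 and 56.9. In the strongest 10% of each list stood 8 of 50, 4 of 42 and 3 of 43 listed members, or 16%, 9.52% and 6.98%, against 14.2%, 12.8% and 13.8% of all listed genes. Members therefore lay above the other bound genes in replicate 1 and close to them in replicate 3. When every N-MYC list was cut to its 2964 strongest peaks, 14 of 60 members remained bound against 10.6% of all genes.

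**Figure D2:**
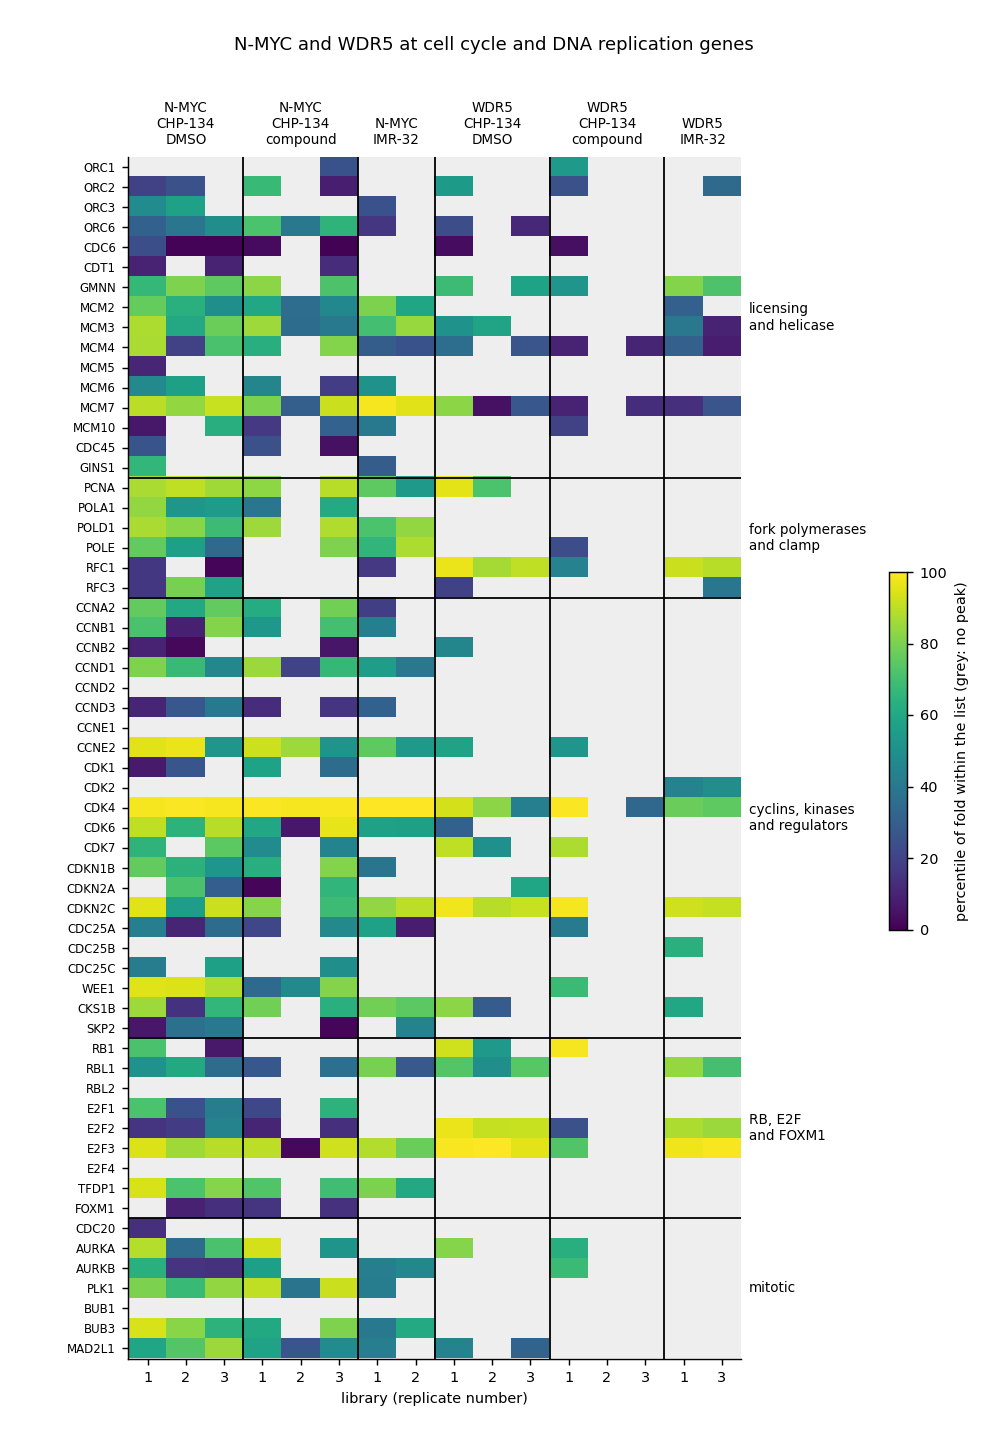
Percentile of fold within each list for the 60 genes (rows, grouped by role) in the 16 libraries (columns, grouped by protein, line and treatment); grey marks a gene without a peak. CDK4 is near 100 in all 8 N-MYC columns, and compound WDR5 replicate 2 is grey throughout. E2F2 and RFC1 are in the lower part of the scale or grey for N-MYC. For WDR5 both are bright in CHP-134 DMSO and IMR-32, and lower or grey with compound.

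Among replication genes, MCM7, a subunit of the helicase ring, was the highest member of its role. Its N-MYC percentiles in CHP-134 were 89.7, 83.7 and 91.5. MCM3, another ring subunit, stood at 87.8, 60.4 and 77.4, and GMNN, which encodes geminin, at 66.8, 80.6 and 75.3. At the low end, CDT1, the loading factor that geminin inhibits, was listed in 2 libraries at 10.0 and 9.86, and MCM5 in 1 library at 10.8. Subunits of one helicase ring thus ranged from 3.59 ± 6.22 for MCM5 to 88.3 ± 4.07 for MCM7 in mean percentile (SD, n = 3), with no overlap between those 2 genes. MCM4, also of the ring, gave 87.4, 19.3 and 71.2, and ORC6, an origin recognition subunit, 30.9, 39.1 and 49.5. The MCM7 peak also covers the start of AP4M1 on the other strand, and that of MCM4 the start of PRKDC, so these peaks cannot be given to 1 gene.

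At the fork, PCNA, the sliding clamp, gave 87.1, 90.5 and 85.7 and varied little between libraries. POLD1, the catalytic subunit of polymerase delta, gave 87.1, 82.0 and 68.4. POLA1, which starts DNA strands with primase, gave 83.7, 52.9 and 54.8. RFC3, a clamp loader subunit, ranged from 16.1 to 79.5, and RFC1, the large clamp loader subunit, was listed in 2 libraries at 16.3 and 1.33. The PCNA summits lay in intron 1, 395 to 427 bp from the TSS, whereas those of most members lay close to the TSS. Over listed members, the median distance from the summit to the nearest TSS was 128.5, 123 and 110 bp in the 3 libraries, against 166, 170 and 160 bp over all listed genes.

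CDK4, the cyclin D kinase, was the strongest member in CHP-134, at 98.6, 99.4 and 98.5. Its summits lay upstream, at -119, -68 and -133 bp from the canonical TSS. WEE1, a kinase that holds CDK1 inactive, followed at 95.1, 94.9 and 88.2, with its summits 108 to 116 bp into the untranslated part of exon 1. CCNE2, cyclin E2, reached 95.6 and 97.2 but 52.9 in replicate 3, in a peak that it shares with the start of NDUFAF6. The kinase that WEE1 restrains, CDK1, was listed at 7.34 and 26.7 only, and CCNB2, cyclin B2, at 9.69 and 2.20. The ranges of CDK4 and CDK1 were thus at opposite ends of the same lists. CDKN2C, an inhibitor of CDK4 and CDK6, gave 95.0, 55.7 and 91.9, but its summits lay at -9936, -9896 and -9938 bp from the canonical TSS, at an alternative start beside that of FAF1. CDK7, the kinase that activates other CDKs, was listed in replicates 1 and 3 at 65.0 and 74.9, and CKS1B, a CDK binding protein, gave 85.3, 14.5 and 66.3.

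In the RB and E2F circuit, E2F3, an activating E2F, was highest at 94.9, 85.9 and 89.1, followed by TFDP1, the partner of E2F proteins, at 94.0, 71.8 and 81.7. RBL1, the pocket protein p107, gave 50.9, 60.8 and 35.5. E2F2, another activating E2F, was low at 15, 17.3 and 44.9, RB1 was listed at 71.2 and 6.99 in replicates 1 and 3, and FOXM1, an activator of mitotic genes, was listed at 9.30 and 13.9. In mitosis, BUB3 of the spindle checkpoint gave 93.8, 82.0 and 64.7, PLK1, a mitotic kinase, 80.2, 67.7 and 83.8, and MAD2L1 of the same checkpoint 58.7, 73.2 and 85.0. AURKB, the kinase of the chromosomal passenger complex, was at 63.5, 15 and 14.1. CDC20, an activator of the anaphase promoting complex, was listed once at 13.7.

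WDR5 was rarer. It was called at 16 of the 60 genes in CHP-134 with DMSO, or 26.7%, against 8.07% of all genes. Those genes were ORC6, GMNN, MCM3, MCM4, MCM7, PCNA, RFC1, CDK4, CDK7, CDKN2C, CKS1B, RB1, RBL1, E2F2, E2F3 and MAD2L1. All 16 also had N-MYC, as did 1473 of all 1627 genes with WDR5. Thus 26.7% of members carried both proteins (cobound) against 7.31% of all genes. Of the bound members 33.3% carried WDR5, compared with 19.8% of all N-MYC bound genes. The list of WDR5 replicate 1 held 4891 peaks and the others 1758 and 1671. Without replicate 1, 7 members kept WDR5 against 4.02% of all genes, namely the 7 that were listed in all 3 libraries. These were MCM7, RFC1, CDK4, CDKN2C, RBL1, E2F2 and E2F3.

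By role, WDR5 was called at 7 of 22 replication genes, 4 of 22 cyclins, kinases and regulators, 4 of 9 genes of the RB and E2F circuit and 1 of 7 mitotic genes. The strongest WDR5 peak of any member was that of E2F3, at percentiles 98.9, 99.8 and 95.8. E2F2 followed at 97.1, 91.1 and 91.4, CDKN2C at 97.8, 89.4 and 91.5 and RFC1 at 96.9, 86.5 and 90.5. These 4 members were high in all 3 libraries. RBL1 gave 73.3, 49.8 and 74.0. MCM7 gave 82.8, 4.49 and 27.1, a wide spread. The other 9 cobound members were listed in 2 of the 3 libraries, for example CDK7 at 90.6 and 50.1, RB1 at 92.7 and 53.5 and PCNA at 96.0 and 71.5 in replicates 1 and 2, and GMNN at 68.4 and 58.2 and MCM4 at 36.3 and 26.5 in replicates 1 and 3. Over listed members the median WDR5 percentile was 65.6 ± 7.33 (SD, n = 3), and 73.3, 64.9 and 58.7 by library, against 53.8, 52.4 and 54.5 over all listed genes. In the strongest 10% stood 34.8%, 16.7% and 33.3% of the listed members, against 13.2%, 11.4% and 12.8% of all listed genes.

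The order of the cobound members differed between the proteins. RFC1 had WDR5 at a mean percentile of 91.3 ± 5.27 but N-MYC at 5.87 ± 9.04 (SD, n = 3 each), with no overlap between the proteins. E2F2 was alike, at 93.2 ± 3.40 for WDR5 and 25.7 ± 16.6 for N-MYC. At ORC6, MCM3, MCM7, CDK4 and MAD2L1 every N-MYC percentile lay above every WDR5 percentile. CDK4, the highest for N-MYC, had WDR5 at 93.6, 82.6 and 43.1. E2F3 and CDKN2C were high for both. Percentiles of 2 antibodies rank peaks in different lists, so these values compare orders and not amounts of protein.

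**Figure D3:**
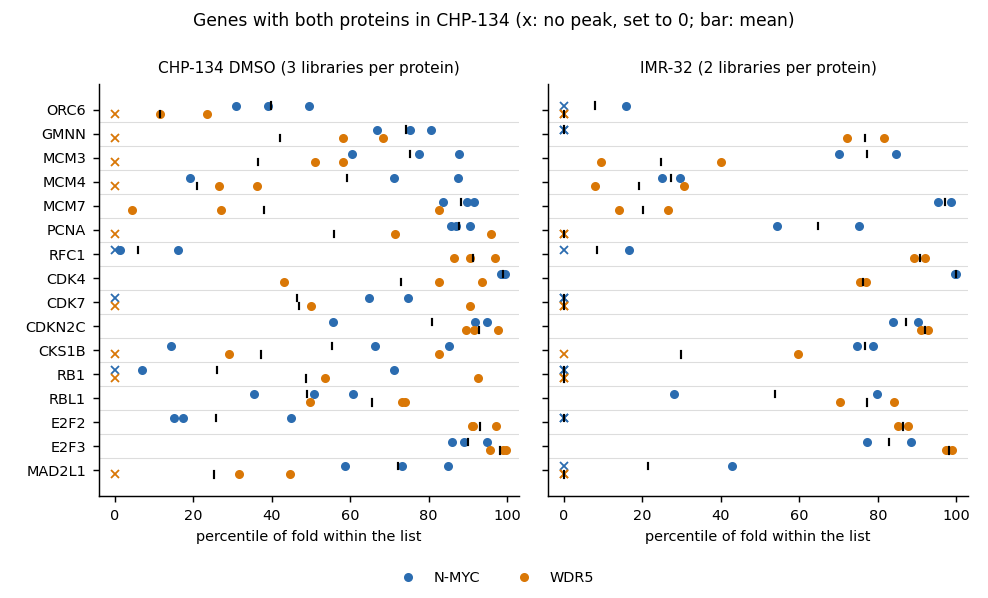
Percentile of fold for N-MYC (blue) and WDR5 (orange) at the 16 genes with both proteins in CHP-134 DMSO, with 1 point per library, a cross at 0 for a library without a peak and a black bar for the mean. RFC1 and E2F2 have orange points at the right and blue points at the left in CHP-134, and E2F3 and CDKN2C have both colours at the right in both lines.

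Positions also differed among the cobound members. In all 16, at least 1 WDR5 peak overlapped an N-MYC peak, as in 1432 of all 1473 cobound genes. The mean distance between N-MYC and WDR5 summits, taken over all pairs of libraries, had a median of 183 bp over the 16 members and 162 bp over all 1473 cobound genes. At CDK4, CDK7 and PCNA it was 29.7, 20 and 19.2 bp. At CKS1B it was 479 bp, with WDR5 summits 449 and 499 bp into the gene, in intron 1, and N-MYC summits at 10, -38 and 13 bp. The distance was longest at E2F3. Its WDR5 summits lay 147 to 166 bp from the canonical TSS in exon 1, and the strongest N-MYC peak lay in intron 1 at 1543 and 1475 bp in replicates 1 and 3. Replicate 2 listed 1 broad N-MYC peak, chr6:20402024-20403886, with its summit at 135 bp. Weaker N-MYC peaks lay beside the WDR5 summits, at 118 bp in replicate 1 (percentile 35.1) and 125 bp in replicate 3 (percentile 27.6), so N-MYC was found at both places. In IMR-32, WDR5 lay at 155 and 160 bp and the strongest N-MYC peak at 1605 and 1630 bp, with weaker N-MYC peaks at 83 and 93 bp (percentiles 70.8 and 42.8).

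**Figure D4:**
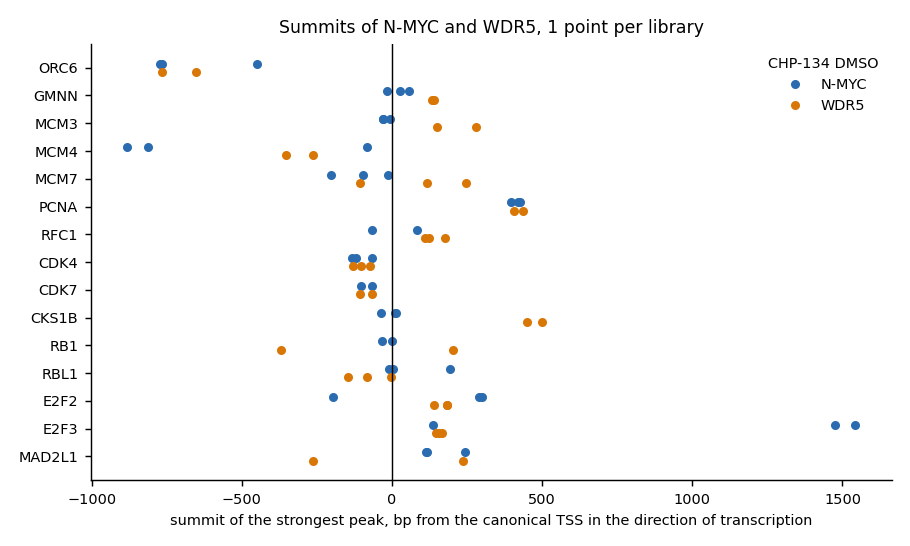
Position of the summit of the strongest peak from the canonical TSS, in bp along the direction of transcription, for 15 genes with both proteins in CHP-134 DMSO; blue is N-MYC, orange WDR5, 1 point per library, and CDKN2C is left out because its peaks lie at an alternative start. At E2F3 a pair of N-MYC points sits at 1543 and 1475 bp and the WDR5 points between 147 and 166 bp.

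Of the 48 members bound by N-MYC in CHP-134, 12 shared the peak with the start of another protein-coding gene and 17 with that of any coding or long noncoding gene. Examples are ORC6 with VPS35, MCM2 with TPRA1, CKS1B with SHC1 and AURKA with CSTF1. For 31 members the peak lay near no other start. The same shares over all bound genes were not counted, so these counts have no background beside them.

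IMR-32 served as another amplified line without treatment. N-MYC was called at 19 of 60 members, or 31.7%, against 15% of all genes. WDR5 was called at 11, against 4.63%, and both at 7, against 2.48%. Those 7 were MCM3, MCM4, MCM7, CDK4, CDKN2C, RBL1 and E2F3, and all 7 were cobound in CHP-134. All 19 members with N-MYC in IMR-32 also had it in CHP-134, as did 2873 of all 3014 genes with N-MYC in IMR-32. Of the members bound in CHP-134, 39.6% were bound in IMR-32, close to 38.6% of all genes bound in CHP-134. Of the members with WDR5 in CHP-134, 10 of 16 (62.5%) had it in IMR-32, against 40.9% of all such genes. A call required both libraries in IMR-32 and 2 of 3 in CHP-134. When every N-MYC list was cut to its 2964 strongest peaks, the IMR-32 count was 12 of 60 against 7.31% of all genes.

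CDK4 and MCM7 were high for N-MYC in IMR-32. CDK4 stood at 99.7 and 99.9 and MCM7 at 98.5 and 95.4, both above all CHP-134 values, and 2.98% of the 9946 genes tested were higher without overlap. At MCM7 the places differed, with IMR-32 summits 784 and 767 bp from the canonical TSS and CHP-134 DMSO summits at -203, -13 and -95 bp. IMR-32 replicate 2 also listed a weaker MCM7 peak at -210 bp (percentile 41.4). N-MYC was lower in IMR-32 without overlap at 16 of 52 members tested, against 24.9% of all genes. These included WEE1, at 95.1, 94.9 and 88.2 in CHP-134 and without a peak in both IMR-32 lists, and GMNN and POLA1, also without a peak there. AURKA, a mitotic kinase, had 88.9, 35.5 and 71.3 in CHP-134, and E2F1 71.7, 25.2 and 42.3, against no peak in IMR-32. In all, 17 members had N-MYC in at least 2 CHP-134 libraries and in 0 IMR-32 libraries, 35.4% of the bound members against 34.7% of all bound genes, among them CDKN2A at 71.2 and 30.1, CDC25C at 41.8 and 56.9, and CDK7 and RB1. No member showed the converse, with 0 bound in both IMR-32 libraries and fewer than 2 of CHP-134, against 0.7% of all genes. The GMNN promoter kept WDR5 in IMR-32 at 81.5 and 72.1, as did E2F2 at 87.7 and 85.1 and RFC1 at 92.1 and 89.3. For WDR5, E2F2 was the 1 member of 27 that was lower without overlap, against 7.42% of all genes, and CDK2 and GMNN were higher, against 5.04%. CDK2 had WDR5 at 44.4 and 49.6 in IMR-32 and no peak in CHP-134.

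Exact two-sided permutation tests over libraries gave no gene past the correction, since 3 libraries against 2 cannot reach a p below 0.1. The smallest Benjamini-Hochberg adjusted p was 0.629 for N-MYC and 1 for WDR5, and 0 genes had an unadjusted p under 0.05. The IMR-32 lists were shorter, with 8286 and 5242 N-MYC peaks against 9125 to 15286, and came from paired end reads on another sequencer. IMR-32 cells were also untreated, whereas the CHP-134 cells had received DMSO. Line, DMSO, sequencer, read type and list length therefore cannot be told apart. With equal numbers of strongest peaks, 2 members were lower and 5 higher for N-MYC, against 8.29% and 11.3% of all genes, and 5 members were higher for WDR5, against 14.6%. Without DMSO replicate 2, 25 members were lower for N-MYC against 43.2% of all genes.

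After 4 h of compound, N-MYC was called at 39 of 60 members against 29.2% of all genes. The lists held 11249, 2964 and 12313 peaks, and replicate 2 stands apart with peaks at 12 members where the others had 40 and 45. Without replicate 1 or replicate 3 the count was 12 in each case, against 10.5% and 10.4% of all genes, and without replicate 2 it was 39, against 28.9%. N-MYC was lower with no overlap at 5 of 53 members tested, E2F2, MAD2L1, RFC3, SKP2 and WEE1, against 5.5% of 10013 genes. It was higher at 0 members, against 0% of all genes. WEE1 stood at 95.1, 94.9 and 88.2 with DMSO and at 34.3, 47.7 and 81.6 with compound, a difference of -38.2 in mean percentile that ranged from -51.7 to -28.1 when 1 library was left out. RFC3 had no peak in any compound list, and SKP2, a subunit of the ubiquitin ligase that degrades p27, was listed in 1 of 3 at 1.92. MAD2L1 stood at 58.7, 73.2 and 85.0 against 57.7, 26.9 and 48.5, so its groups were separated by a narrow gap. E2F2 stood at 15, 17.3 and 44.9 against 10.3 and 13.5 in replicates 1 and 3. CDK4 stayed at 99.2, 98.8 and 99.1.

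No gene passed the exact two-sided permutation test, in which 3 libraries against 3 give a p of 0.1 at the lowest, and the smallest Benjamini-Hochberg adjusted p was 1, with 0 genes at an unadjusted p under 0.05. Replicate numbers paired the N-MYC libraries, which the permutation test did not use. By pairs 14 of 53 members were lower in every pair against 20.6% of all genes, with ORC6 alone higher in every pair, against 0.320%. An exact two-sided sign-flip test of 3 pairs cannot give a p below 0.25, so these counts are descriptive. ORC6 gave 30.9, 39.1 and 49.5 with DMSO and 71.7, 40.0 and 65.1 with compound. Across all genes tested the median difference was -10.1 percentile points and over the members -16.2, and a member without a peak in the short list of replicate 2 entered its mean as 0. With equal numbers of strongest peaks 2 members were lower and 1 higher, against 1.96% and 0.444% of all genes. With replicate 2 left out and the other 5 lists cut to 9125 peaks, an alternative chosen after seeing the data, TFDP1 and WEE1 were lower and ORC6 and PLK1 higher among 48 members, against 4.98% and 4.09% of all genes. Of the 5 members above, WEE1 was the 1 that was also lower there. Leaving out 1 library at a time gave 5 to 13 members lower, and 0 to 4 higher. The count lower was 11 without DMSO replicate 2 (15.9% of all genes) and 11 without DMSO replicate 3 (11.7%). It was 10 without compound replicate 1 (12%) and 13 without compound replicate 3 (17.8%), and 4 were higher without compound replicate 2 (2.84%).

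WDR5 in compound-treated cells was called at 3 members, MCM4, MCM7 and CDK4, against 1.28% of all genes. The 3 lists held 5973, 15 and 401 peaks, with a peak at 20, 0 and 3 members, so each call rests on replicates 1 and 3, and the count was 0 without either of them. WDR5 was lower without overlap at E2F2, E2F3, RBL1 and RFC1, 4 of 30 members against 9.11% of 5508 genes, and higher at 0, against 0.0182%. E2F3 stood at 98.9, 99.8 and 95.8 with DMSO and at 73.0 in compound replicate 1, with no peak in the others. In that list of 5973 peaks E2F2 stood at 24.7 and RFC1 at 44.4, and RBL1 had no peak. In the same replicate 1 list CDK4 stood at 99.6, CDKN2C at 98.6 and RB1 at 98.5, so the order within that list was not that of the DMSO lists. Without compound replicate 2 the count lower was again 4, and it was 9 without DMSO replicate 2 (13.5% of all genes) and 7 without DMSO replicate 3 (15.8%). No gene could pass the test, whose smallest adjusted p was 1, and 0 genes had an unadjusted p under 0.05. In compound replicates 2 and 3 a missing peak at these genes cannot be told apart from the short list.

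The promoters themselves, 250 bp before to 50 bp after the canonical TSS, were searched for words of other cell cycle factors, with no test of the shares. Words of the E2F site (TTTCCCGC, TTTCGCGC, TTTGCCGC or TTTGGCGC on either strand) occurred in 23 of 60 members against 4.37% of 19858 promoters. They were in 10 of 16 licensing and helicase promoters, 4 of 6 fork promoters, 6 of 9 of the RB and E2F circuit, 3 of 22 cyclins, kinases and regulators and 0 of 7 mitotic genes. The cell cycle homology region (CHR), TTTGAA on either strand, was in 6 of 7 mitotic promoters and in 0 of 16 licensing and helicase promoters, against 11.5% of all promoters. The box CCAAT, the site of NF-Y, was in 7 of 7 mitotic promoters and 41 of 60 members, against 36.0%. CACGTG was in 12 of 60 promoters against 8.76%, and all 12 belonged to members with N-MYC, leaving 0 of the 12 members without it. At CDKN2C, however, the N-MYC peaks in CHP-134 DMSO lay outside this promoter window. The share over all promoters bound by N-MYC was not counted. The first 4 sites here carry an E2F word in capitals and the last 4 a CHR, shown as examples of the replication or E2F promoters and of the mitotic or G2 promoters, on the strand of the gene. The MCM3 stretch crosses the TSS.
MCM3, chr6:52149526-52149555, minus strand: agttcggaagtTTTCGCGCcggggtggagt
MCM6, chr2:136634085-136634114, minus strand: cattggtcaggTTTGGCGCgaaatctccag
E2F1, chr20:32274193-32274222, minus strand: ggcaaaaaggaTTTGGCGCgtaaaagtggc
E2F2, chr1:23857749-23857778, minus strand: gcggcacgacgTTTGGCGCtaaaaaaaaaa
PLK1, chr16:23690169-23690198, plus strand: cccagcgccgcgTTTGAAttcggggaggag
AURKB, chr17:8113915-8113944, minus strand: cggggcgggagaTTTGAAaagtccttggcc
CCNB2, chr15:59397304-59397333, plus strand: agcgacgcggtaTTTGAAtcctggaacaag
CDC25C, chr5:137667506-137667535, minus strand: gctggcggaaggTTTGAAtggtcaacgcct

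E2F words were in 7 of 16 cobound promoters and in 14 of 32 promoters with N-MYC and no WDR5 call, 43.8% in both, and in 2 of 12 members without N-MYC. In words such as TTTGGCGCGAAA, an E2F word on one strand overlaps another on the opposite strand, so a promoter was counted once. Median GC content was 63.3% in the 60 promoters and 63.7% in all promoters. A word is a match of letters and not evidence that a factor was bound.

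**Figure D5:**
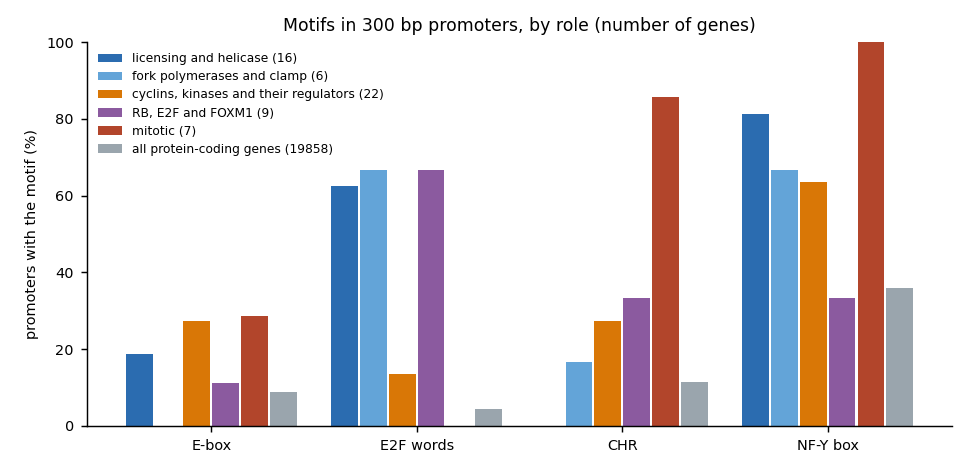
Percentage of promoters (250 bp before to 50 bp after the canonical TSS) that hold an E-box, an E2F word, a CHR or an NF-Y box, by role and for all 19858 promoters (grey). E2F words are in over 60% of the licensing, fork and E2F groups and in 0 of 7 mitotic genes, and the CHR is in 6 of 7 mitotic genes.

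Genes of the same processes that were not members were counted for comparison. Of 34 further replication genes 22 had N-MYC in CHP-134, of 23 further cell cycle genes 15 and of 29 further mitotic genes 21, or 58 of 86 in all (67.4%), against 37% of all genes. WDR5 was called at 11 of the 86, or 12.8%, against 8.07% of all genes, and 8 of the 11 were replication genes. Of the 58 genes with N-MYC, 17.2% had WDR5, below the 19.8% over all bound genes. Among these, CDC7, the kinase that fires origins, was the 1 replication gene that was cobound in both lines. A promoter peak does not report expression.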

How the data were processed

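N-MYC and WDR5 ChIP-seq was analysed in CHP-134 and IMR-32 cells. The authors trimmed reads (75 bp single in CHP-134, paired end in IMR-32), used Bowtie2 for alignment to hg19, and ran MACS2 on each library at a q-value of 0.05, with versions and the control library not given in the sources used here. The deposited fold is a linear ratio (fold enrichment); the deposited −log10 p-value was not used, the −log10 q-value served as a stricter filter and chose, over the libraries of a group, the peak used for the E-box and shared-start counts, and the deposited score was not used. Groups followed the sample labels. Peaks were joined to TSSs of basic transcripts in GENCODE 44 on GRCh37, and the fold of the strongest peak per gene was ranked within its list with average ranks (python 3.11.15, pandas 2.3.3, pysam 0.24.0). Libraries were compared gene by gene with exact permutation tests over every listed gene with Benjamini-Hochberg adjustment, and a call required groups that did not overlap. The steps were tested on simulated lists. Depth is unknown, so no interval based on depth is given. Read length and library differences can change the number and width of peaks.

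The members, roles and lists were chosen with earlier results of these data known. Genes named with values are all cobound members, per role the 3 highest and 2 lowest listed members by mean CHP-134 N-MYC percentile, members without overlap between DMSO and compound, and members that differed between lines; a few others are named as examples after their values were seen. Deviations of same-numbered DMSO and compound libraries correlated across genes at r = 0.42, 0.33 and 0.45 for N-MYC, so these numbers were taken as pairs, and at 0.068, 0.058 and 0.081 for WDR5, so those were not. Alternatives were the peak to TSS rule, the distance, the TSSs, the number of libraries, the q-value, equal numbers of peaks, the percentile base, the replicate block, the window around the summit and leaving out each library. The check of cell type markers is not reported here.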

Additional observations from a re-analysis of the deposited data

How the results depend on the processing

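Main counts and medians stayed within the spread between libraries or within 1.5 times in 208 comparisons with an alternative and moved in 54. With equal numbers of strongest peaks, N-MYC members numbered 14 in CHP-134 DMSO, 11 with compound and 12 in IMR-32. The shares of all genes were 10.6%, 9.92% and 7.31%. WDR5 lists were cut to 1258 peaks, but the compound WDR5 lists of 15 and 401 peaks were shorter and stayed whole. WDR5 members with compound were 1, against 0.601% of all genes. Cobound members were 5 in CHP-134 DMSO and 4 in IMR-32, against 2.17% and 1.34%. The N-MYC medians were 45.8 and 43.3, and compound N-MYC was lower at 2 members and higher at 1. IMR-32 N-MYC turned from 16 lower and 2 higher to 2 lower and 5 higher. The shares of all genes moved the same way, from 24.9% and 2.98% to 8.29% and 11.3%. IMR-32 WDR5 was higher at 5 members, and 6 members had an E-box. The 5-list alternative chosen after seeing the data gave 2 lower and 2 higher. At −log10 q of at least 5, IMR-32 cobound members were 4 and compound WDR5 members 1, against 1.66% and 0.655% of all genes. The IMR-32 N-MYC median was then 49.6. That median was 55.0 with the canonical TSS, 54.6 among promoter peaks and 48.7 with the nearest peak. With a peak required in every library, CHP-134 DMSO counts were 7 for WDR5 and 6 cobound, against 3.78% and 3.10% of all genes. They were 12 for compound N-MYC and 0 for compound WDR5, against 10.3% and 0.0844%. With 1 library they were 32 for IMR-32 N-MYC and 20 for compound WDR5, against 28.2% and 16.0%. An E-box lay within 50 bp at 6 members and within 250 bp at 17. Shares over all bound genes were not counted for these windows. The replicate block gave 14 lower and 1 higher for compound N-MYC and changed no WDR5 call by over 1.5 times.

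Leaving out 1 library at a time gave 7 to 12 WDR5 members and 7 to 16 cobound members in CHP-134 DMSO, 12 to 39 and 0 to 3 with compound, 5 to 13 lower and 0 to 4 higher for compound N-MYC, 4 to 9 lower for compound WDR5, 17 to 25 lower and 2 to 6 higher for IMR-32 N-MYC, and 1 to 6 lower and 2 to 5 higher for IMR-32 WDR5. These ranges are given without the shares over all genes, which also changed between alternatives. IMR-32 counts could not be given without a library, since 2 are required. The lists hold no depth, so short lists and weak binding cannot be separated.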
